A study of Mus musculus with 20 samples.

Results

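The genes described here are 8 markers of the mural cells that wrap brain vessels: Acta2, Tagln, Myh11 and Myl9 of vascular smooth muscle, and Rgs5, Pdgfrb, Cspg4 and Vtn of pericytes. They were chosen by symbol, and all 8 were among the 13256 genes that the 20 hippocampus RNA-seq libraries share. All 8 were above 0 in every library and passed the filter for testing, which 13174 genes passed. The mice fell into 4 groups of 5 libraries each: male Fmr1 KO, male C57, female Fmr1 KO and female C57. Titles name the mutant mice KO, while the genotype field calls the same mice an Fmr1 knockdown and the C57 mice WT. The titles of all 20 libraries also carry the tag Con before the replicate number. No age, litter or clone was stated, no agent was named, and the labels do not say whether each library came from a separate mouse. The p-values therefore describe spread among libraries, which may be technical. Fmr1, the gene targeted, averaged 3.56 ± 0.187 FPKM (fragment counts scaled to transcript length and library size) in male KO and 11.4 ± 0.527 FPKM in male C57 libraries (SD, n = 5 each). In females it averaged 3.32 ± 0.327 FPKM in KO and 10.6 ± 0.558 FPKM in C57 libraries (SD, n = 5 each), so the KO libraries matched their labels in both sexes.

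Mural cells lie on the outside of the endothelial tube. Smooth muscle cells ring arteries and arterioles and contract when their myosin light chain is phosphorylated, which sets vessel width and blood flow. Pericytes lie along capillaries inside the basement membrane, and are recruited and held there by platelet-derived growth factor that endothelial cells secrete and the pericyte's PDGF receptor beta binds. In brain they are needed for a tight blood-brain barrier. The hippocampus is a mixture in which neurons and glia outnumber vessel cells, so each value below is the level in whole tissue, in which fewer mural cells and less RNA per mural cell cannot be told apart.

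FPKM is scaled to transcript length, so levels can be set side by side between genes. Over the 20 libraries Rgs5 had the highest mean level of the 8 genes, 33.2 FPKM, and 9.04% of the tested genes had a higher mean. Vtn followed with 25.2 FPKM, Myl9 with 12.5 FPKM and Acta2 with 8.66 FPKM. Each of these stood above the next in at least 19 of 20 libraries. Tagln, with a mean of 3.78 FPKM, and Pdgfrb, with 3.51 FPKM, were not separated, since Tagln was the higher in only 8 of 20 libraries. Myh11, with 1.68 FPKM, and Cspg4, with 1.39 FPKM, closed the order and were not separated either, Myh11 being the higher in 12 of 20 libraries.

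The 4 contractile genes varied far more between libraries than the 4 pericyte genes. The coefficient of variation over 20 libraries was 44.5% for Acta2, 43.7% for Tagln, 37.7% for Myh11 and 31.3% for Myl9, against 14.0% for Vtn, 11.8% for Cspg4, 9.85% for Pdgfrb and 8.81% for Rgs5. Among the 4993 tested genes with a mean within 2-fold of that of Acta2, the median coefficient was 8.62%, and 1.40% of them varied more than Acta2. For the 2150 genes at the level of Rgs5 the median was 6.71%, and 28.9% of them varied more than Rgs5. The highest library stood 4.80-fold above the lowest for Acta2 and 1.27-fold for Rgs5. Female KO replicate 4 was the highest of all 20 libraries for 7 of the 8 genes, the exception being Rgs5, which peaked in male KO replicate 3.

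**Figure D1:**
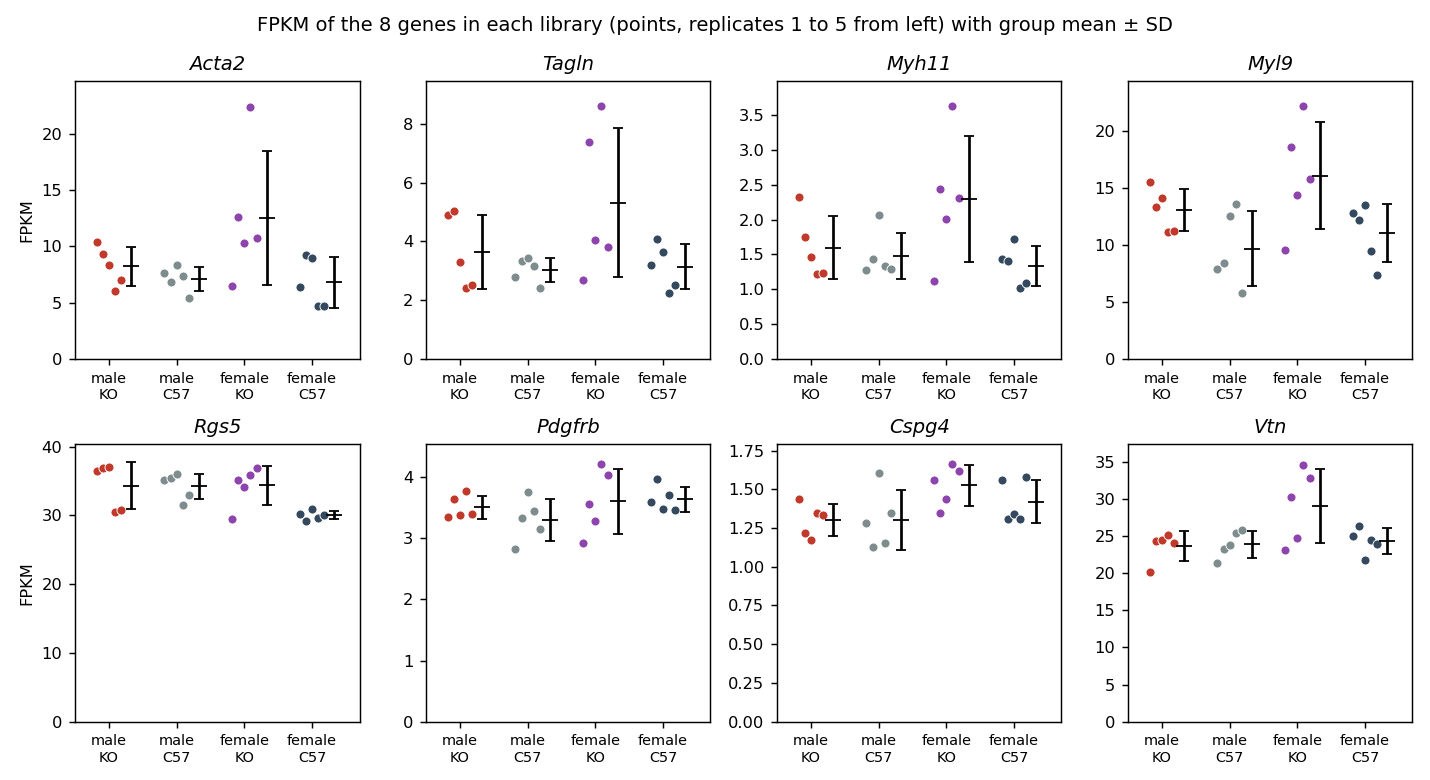
FPKM (vertical axes, from 0) of the 8 genes in the 5 libraries of each group, with replicates 1 to 5 from left to right and the group mean ± SD as a bar beside the points. The contractile genes of the upper row scatter widely in female KO libraries, where Acta2 spans 6.50 to 22.4 FPKM, while Rgs5, Pdgfrb and Cspg4 stay within narrow ranges in all 4 groups.

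Acta2 encodes smooth muscle alpha-actin, the thin filament protein of the contractile apparatus. It lies at chr19:34241090-34255336 on the minus strand (mm10). In males its level was 10.4, 9.34, 8.32, 6.02 and 6.99 FPKM in KO replicates 1 to 5, against 7.62, 6.86, 8.30, 7.40 and 5.46 FPKM in C57 replicates 1 to 5. In females it was 6.50, 12.6, 10.3, 22.4 and 10.8 FPKM in KO replicates 1 to 5, against 6.39, 9.27, 8.94, 4.71 and 4.67 FPKM in C57 replicates 1 to 5. Replicates 2 to 5 of the female KO group stood above every female C57 library, and replicate 1 stood within the C57 range, so the groups overlapped. The difference in mean log2(FPKM + 1), KO minus C57, was 0.74 in females (SE 0.234, adjusted p = 0.0860 by limma with Benjamini-Hochberg adjustment over all tested genes). In males the same difference was 0.17 (SE 0.234, adjusted p = 0.904 by limma).

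Because skeletal, cardiac and enteric muscle actins have closely similar coding sequences, reads of those genes may be counted under Acta2, and how they were assigned is not given in the sources used here. Acta1, the skeletal muscle paralog, averaged 3.26 ± 0.345 FPKM in female KO and 2.82 ± 0.251 FPKM in female C57 libraries (SD, n = 5 each). Its difference in females was 0.16 (adjusted p = 0.365 by limma), against 0.74 for Acta2. In males the difference of Acta1 was -0.42, against 0.17 for Acta2. There all 5 tested skeletal muscle genes, Acta1 among them, were lower in KO at an unadjusted p under 0.05 by limma. Of all genes 5.31% were lower there at that p. Within C57 mice all 5 were higher in males than in females at that p, where 5.78% of all genes were. How far such reads entered the values of Acta2 was not tested.

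Myl9 encodes the regulatory light chain of smooth muscle myosin, the chain whose phosphorylation starts contraction (chr2:156775420-156781658, plus strand). In males its level was 15.5, 13.3, 14.1, 11.1 and 11.2 FPKM in KO replicates, against 7.89, 8.40, 12.6, 13.6 and 5.81 FPKM in C57 replicates. All 5 male KO libraries lay above 11 FPKM, as did 2 of the 5 male C57 libraries. In females it was 9.52, 18.5, 14.3, 22.2 and 15.8 FPKM in KO replicates, against 12.8, 12.2, 13.5, 9.44 and 7.36 FPKM in C57 replicates. As for Acta2, replicates 2 to 5 of the female KO group were above all female C57 libraries and replicate 1 was not. Myl9 was the contractile gene with the most alike differences in the 2 sexes, 0.45 in males (SE 0.214, adjusted p = 0.575 by limma) and 0.48 in females (SE 0.214, adjusted p = 0.220 by limma).

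Promoters of smooth muscle contractile genes are known to bind serum response factor at CArG boxes, and windows before the RefSeq start (GRCm38.p6) were available for 5 of the 8 genes: Acta2, Myl9, Rgs5, Cspg4 and Vtn. None is shown for Tagln, Myh11 and Pdgfrb. The windows of Acta2 and Myl9 are shown as the 2 contractile genes with a window, and that of Rgs5 as the pericyte gene with the highest level. Capitals mark 10-base CArG boxes with at most 1 C or G in their 6-base core. Each is read 5′ to 3′ on the gene's strand, Acta2 from chr19:34255374-34255623 (minus), Myl9 from chr2:156775214-156775419 (plus) and Rgs5 from chr1:169655251-169655500 (plus). GENCODE M21 places a first exon of Acta2 inside its window, which RefSeq does not.
Acta2: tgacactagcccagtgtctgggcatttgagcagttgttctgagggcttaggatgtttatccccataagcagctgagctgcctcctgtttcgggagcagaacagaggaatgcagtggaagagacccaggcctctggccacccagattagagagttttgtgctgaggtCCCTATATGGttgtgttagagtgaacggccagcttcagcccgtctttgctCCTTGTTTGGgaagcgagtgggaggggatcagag
Myl9: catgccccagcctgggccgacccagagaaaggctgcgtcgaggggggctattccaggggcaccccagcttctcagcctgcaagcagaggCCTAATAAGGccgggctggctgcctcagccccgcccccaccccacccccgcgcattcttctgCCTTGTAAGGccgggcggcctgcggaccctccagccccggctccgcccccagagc
Rgs5: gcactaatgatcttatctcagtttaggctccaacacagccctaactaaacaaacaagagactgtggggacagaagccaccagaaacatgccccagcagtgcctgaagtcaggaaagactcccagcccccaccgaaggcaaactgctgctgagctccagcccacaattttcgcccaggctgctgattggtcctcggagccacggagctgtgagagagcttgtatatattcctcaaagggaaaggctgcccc

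The Acta2 window held CCCTATATGG, 84 to 75 bases before the RefSeq start, and CCTTGTTTGG, 34 to 25 bases before it. The Myl9 window held CCTAATAAGG, 161 to 152 bases before the RefSeq start, and CCTTGTAAGG, 99 to 90 bases before it. The Myl9 letters shown stop short of that RefSeq start, so these positions are not counted from the end of the letters shown. The windows searched held 250 bases for Acta2 and Rgs5, and stopped at the annotated gene start, at 206 bases for Myl9, 179 for Cspg4 and 221 for Vtn. Of 32851 windows of 250 bases before mouse gene starts, 8.59% held at least 1 such box and 0.67% held 2 or more, counting either strand. The share with at least 1 box was 7.32% at the length searched for Myl9, 6.3% at that for Cspg4 and 7.76% at that for Vtn. No box of this kind was found in these windows of Rgs5, Cspg4 and Vtn. The 6 letters CATTCC, the core that TEAD factors are known to bind, were found on either strand once each in the Acta2 and Vtn windows, and in 12.6% of all windows. A match is a description of the letters and not of binding.

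Tagln encodes transgelin, also called SM22-alpha, an actin-binding protein of smooth muscle (chr9:45929619-45936058, minus strand). In males it read 4.89, 5.05, 3.30, 2.42 and 2.53 FPKM in KO replicates, against 2.79, 3.34, 3.43, 3.15 and 2.42 FPKM in C57 replicates. Only KO replicates 1 and 2 exceeded the male C57 range. In females it read 2.70, 7.39, 4.06, 8.60 and 3.81 FPKM in KO replicates, against 3.20, 4.10, 3.63, 2.25 and 2.53 FPKM in C57 replicates. KO replicates 2 and 4 stood above the female C57 range and the other 3 lay inside it. The difference in mean log2(FPKM + 1) was 0.54 in females (SE 0.224, adjusted p = 0.193 by limma) and 0.17 in males (adjusted p = 0.900). Tagln overlaps Pcsk7 and Gm48529 on the opposite strand, and whether the counting used strand is not given in the sources used here, so reads of the overlapped stretch cannot be told apart.

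Myh11 encodes the smooth muscle myosin heavy chain, the motor that pulls on those actin filaments and the most specific of the 4 contractile markers (chr16:14194527-14291408, minus strand). In males it read 2.33, 1.74, 1.47, 1.23 and 1.23 FPKM in KO replicates, against 1.27, 1.43, 2.06, 1.33 and 1.29 FPKM in C57 replicates. The male groups overlapped, with 1 KO library above and 2 below all 5 C57 libraries. In females it read 1.12, 2.43, 2.001, 3.63 and 2.31 FPKM in KO replicates, against 1.44, 1.40, 1.72, 1.02 and 1.09 FPKM in C57 replicates. Again KO replicates 2 to 5 were above all 5 female C57 libraries. The difference was 0.46 in females (SE 0.158, adjusted p = 0.112 by limma) and 0.06 in males (adjusted p = 0.954).

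Rgs5 encodes a regulator of G protein signalling that shortens signals from Gq and Gi coupled receptors, and it marks brain pericytes (chr1:169655501-169695813, plus strand). In males it read 36.4, 36.9, 37.0, 30.5 and 30.8 FPKM in KO replicates, against 35.2, 35.4, 36.0, 31.5 and 32.97 FPKM in C57 replicates. The male groups had nearly the same mean, 34.3 ± 3.37 FPKM in KO and 34.2 ± 1.89 FPKM in C57 libraries (SD, n = 5 each). In females it read 29.5, 35.2, 34.2, 35.9 and 36.9 FPKM in KO replicates, against 30.2, 29.2, 30.9, 29.7 and 30.1 FPKM in C57 replicates. The female C57 group was the tightest of the 4, with an SD of 0.621 FPKM, and KO replicates 2 to 5 lay above it while replicate 1 lay inside it. The difference was small, 0.18 in females (SE 0.0623, adjusted p = 0.105 by limma) and 0.00 in males (adjusted p = 0.998).

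Pdgfrb encodes PDGF receptor beta, through which pericytes are recruited (chr18:61045150-61085061, plus strand). In males it read 3.34, 3.64, 3.38, 3.77 and 3.40 FPKM in KO replicates, against 2.82, 3.34, 3.76, 3.44 and 3.15 FPKM in C57 replicates. In females it read 2.92, 3.56, 3.29, 4.22 and 4.03 FPKM in KO replicates, against 3.60, 3.96, 3.48, 3.7001 and 3.45 FPKM in C57 replicates. It was the one member whose highest group mean was not in female KO libraries, with 3.60 ± 0.532 FPKM there and 3.64 ± 0.206 FPKM in female C57 libraries (SD, n = 5 each). The difference was -0.02 in females (95% interval -0.17 to 0.13, adjusted p = 0.920 by limma) and 0.07 in males (95% interval -0.08 to 0.22, adjusted p = 0.847).

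Cspg4 encodes NG2, a proteoglycan of the cell surface that pericytes share with oligodendrocyte precursors (chr9:56865033-56899870, plus strand). In males it read 1.44, 1.22, 1.17, 1.35 and 1.33 FPKM in KO replicates, against 1.28, 1.13, 1.61, 1.15 and 1.35 FPKM in C57 replicates. In females it read 1.56, 1.35, 1.44, 1.66 and 1.62 FPKM in KO replicates, against 1.56, 1.31, 1.34, 1.31 and 1.58 FPKM in C57 replicates. All groups overlapped, and the difference was 0.06 in females (95% interval -0.06 to 0.18, adjusted p = 0.595 by limma) and 0.00 in males (95% interval -0.12 to 0.12, adjusted p = 0.998). Of the 9 precursor markers tested beside it, 0 passed in either sex by limma. At an unadjusted p under 0.05, 2 were higher and 1 was lower in female KO, where 10.4% and 9.09% of all genes were. In male KO libraries 0 were higher and 3 lower, where 3.39% and 5.31% of all genes were. Pdgfra, the receptor that marks those precursors, averaged 5.54 ± 0.261 FPKM in female KO and 6.15 ± 0.244 FPKM in female C57 libraries (SD, n = 5 each; difference -0.13, adjusted p = 0.0758 by limma), the opposite direction to Cspg4.

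Vtn encodes vitronectin, an adhesive matrix protein that pericytes secrete in brain and that binds integrins on neighbouring cells (chr11:78499091-78502324, plus strand). In males it read 20.2, 24.3, 24.5, 25.2 and 24.1 FPKM in KO replicates, against 21.3, 23.2, 23.8, 25.4 and 25.8 FPKM in C57 replicates. In females it read 23.2, 30.2, 24.7, 34.6 and 32.8 FPKM in KO replicates, against 25.04, 26.4, 21.8, 24.5 and 24.0 FPKM in C57 replicates. The male groups lay on each other, while female KO replicates 2, 4 and 5 stood above every other library of the series. The difference was 0.23 in females (SE 0.0917, adjusted p = 0.164 by limma) and -0.01 in males (adjusted p = 0.984).

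Read as a group in females, 7 of the 8 genes had a higher log2 mean in KO libraries, where 52% of all tested genes did. The median difference of the 8 was 0.35, and that of all tested genes 0.0052. By limma 0 of 8 passed the adjusted threshold of 0.05, where 3.32% of all tested genes did. At an unadjusted p under 0.05, 6 of 8 were higher and 0 lower, where 10.4% of all genes were higher and 9.09% lower. Groups were apart, with no overlap, for 0 of 8, and for 3.17% of all genes in the higher direction. The 4 contractile genes had a median difference of 0.51 and the 4 pericyte genes 0.12. Leaving out female KO replicate 1, the library lowest in its group for 7 of the 8 genes, gave 3 of 8 past the threshold: Acta2 at 0.93 (adjusted p = 0.0292), Myh11 at 0.61 (adjusted p = 0.0241) and Rgs5 at 0.24 (adjusted p = 0.0320), in a fit with 434 of 13174 genes past it. Leaving out female KO replicate 4, the library highest for 7 of the 8, gave 0 of 8 past the threshold and 3 of 8 at an unadjusted p under 0.05, with 0.52 for Acta2 and 0.36 for Tagln. Without the libraries high in Ttr, a choroid plexus gene, Acta2 was 0.37 and Tagln 0.32. Without those high in Prl, the prolactin gene, Acta2 was 0.32 and Tagln 0.05. Either fit had 0 of 8 past the threshold. The Prl fit left out female KO replicates 2, 3 and 4. Its female KO mean thus rested on replicate 5 and on replicate 1, the low library named above. Removing a trend on GC content brought Rgs5 alone past it, at 0.23 (adjusted p = 0.0444).

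In males 0 of 8 passed by limma, where 0.0455% of all genes did. At an unadjusted p under 0.05, 0 of 8 were past it, where 3.39% of all genes were higher and 5.31% lower. The median difference of the 8 genes was 0.07, with Myl9 the largest at 0.45. Averaged over both sexes the KO effect was above 0 for all 8 genes, as for 50.9% of all genes, and had a median of 0.19. For that mean effect 0 of 8 passed by limma, where 3.22% of all genes did, and 5 of 8 were higher at an unadjusted p under 0.05, where 8.69% of all genes were. Myl9 and Acta2 led it with 0.47 (adjusted p = 0.101) and 0.45 (adjusted p = 0.146).

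**Figure D2:**
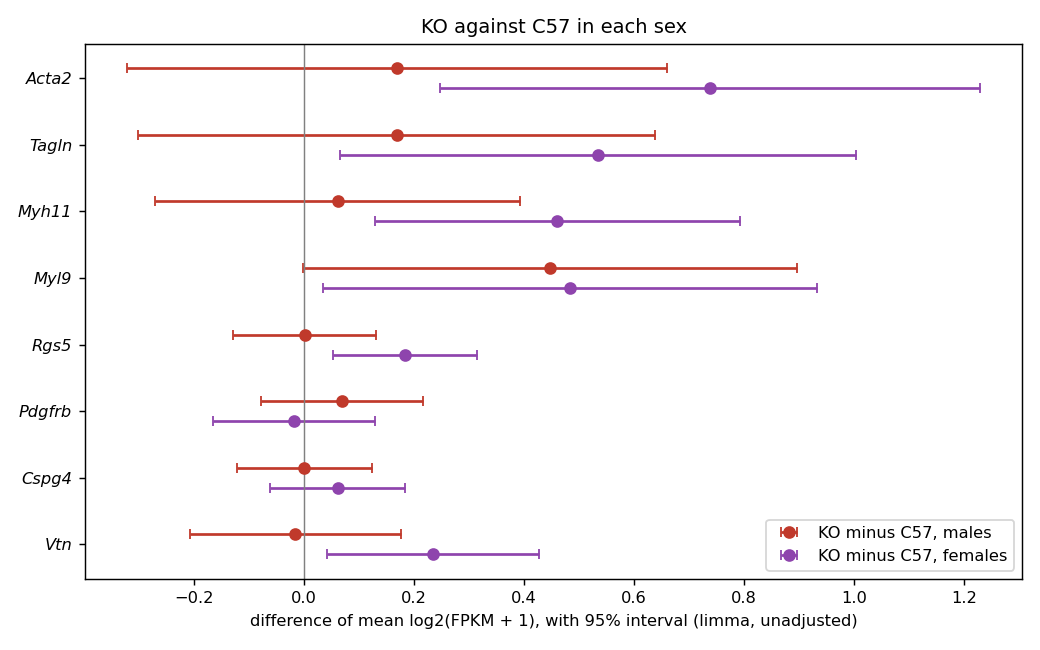
Difference of mean log2(FPKM + 1), KO minus C57 (horizontal axis), for each of the 8 genes in males (upper marks) and females (lower marks), with unadjusted 95% limma intervals. Female differences of Acta2, Tagln, Myh11, Myl9, Rgs5 and Vtn have intervals above 0, while all 8 male intervals include 0.

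Whether the KO effect differed between the sexes was tested directly, as the effect in males minus the effect in females. It was below 0 for 7 of 8 genes, and above 0 for 46% of all tested genes. The direction turned without the libraries high in Prl for Tagln, to 0.12, and for Myl9, to 0.28, and Myl9 turned in 12 of its 30 alternatives. By limma 0 of 8 passed, where 0.0455% of all genes did. At an unadjusted p under 0.05 there were 0 of 8, where 4.51% of all genes were higher and 5.51% lower. Acta2 had the largest difference of effects, -0.57 (SE 0.331, adjusted p = 0.593). Rgs5 had the smallest p of the 8, at -0.18 (SE 0.0881, adjusted p = 0.499 by limma). For Myl9 the effects were nearly equal, with a difference of -0.04 and a 95% interval from -0.67 to 0.60. A p above the threshold does not show that the effects were alike in the 2 sexes.

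Sexes were also compared within each genotype. Within KO mice all 8 genes had lower log2 means in males than in females, where 46.9% of all genes were above 0. Without the libraries high in Prl 4 of the 8 turned above 0, Tagln (0.09), Myl9 (0.07), Rgs5 (0.05) and Pdgfrb (0.02), and without those high in Ttr 2 did, Rgs5 (0.03) and Pdgfrb (0.07). The median difference, males minus females, was -0.26 with all libraries. By limma 0 of 8 passed, where 5.38% of all genes did, and 2 of 8 were lower at an unadjusted p under 0.05, where 13% of all genes were. Vtn was nearest, with 23.7 ± 1.98 FPKM in male KO and 29.1 ± 4.98 FPKM in female KO libraries (SD, n = 5 each; difference -0.28, adjusted p = 0.0818 by limma). Without female KO replicate 1 that difference was -0.35 (adjusted p = 0.0287 by limma), and without the Ttr libraries -0.14 (adjusted p = 0.478). Cspg4 was next, with 1.30 ± 0.105 FPKM in male KO and 1.53 ± 0.131 FPKM in female KO libraries (SD, n = 5 each; difference -0.13, adjusted p = 0.172 by limma).

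Within C57 mice the median difference of the 8 genes between males and females was -0.03, and 0 of 8 passed by limma, where 0.129% of all genes did. Rgs5 was the single member with an unadjusted p under 0.05, higher in males as were 5.78% of all genes at that p. Its 5 male C57 libraries, 31.5 to 36.0 FPKM, all stood above the 5 female C57 libraries, 29.2 to 30.9 FPKM. That absence of overlap was seen in 1.39% of all tested genes. The difference was 0.18 (SE 0.0623, adjusted p = 0.338 by limma). The KO difference of Rgs5 in females and its sex difference in C57 mice share these 5 female C57 libraries.

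**Figure D3:**
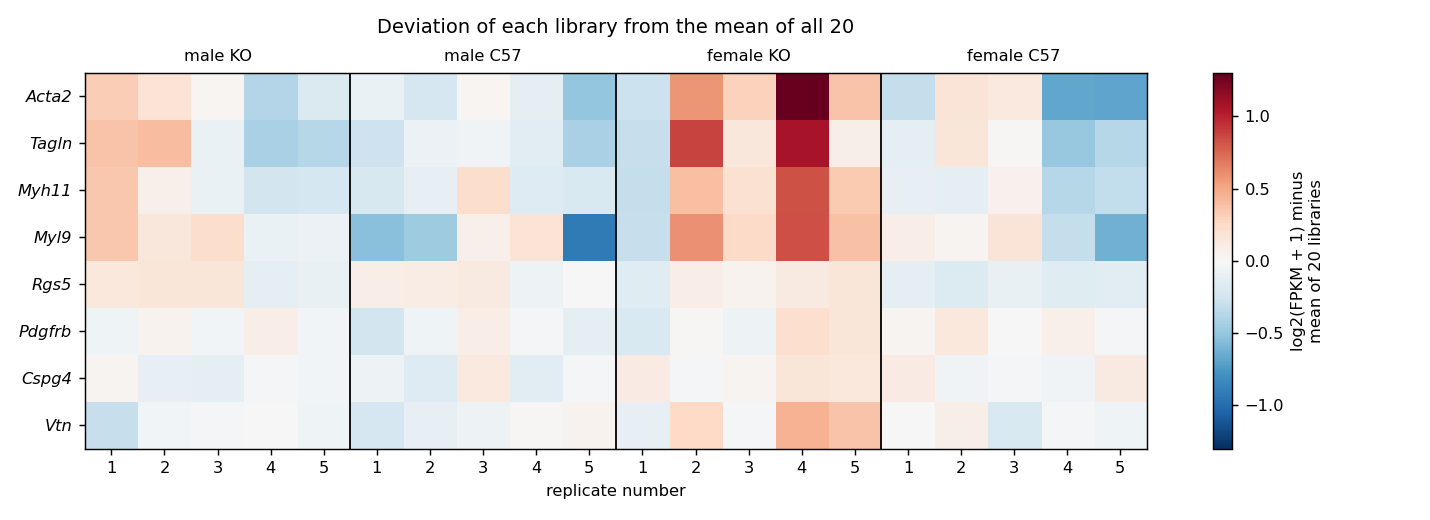
Colour shows log2(FPKM + 1) of each library minus the mean of the 20 libraries, for the 8 genes (rows) and the 20 libraries (columns, by group and replicate number). Female KO replicates 2 and 4 are high and female C57 replicates 4 and 5 low across the 4 contractile rows.

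The 4 contractile genes varied together from library to library. Over the 20 libraries, Pearson's r of log2(FPKM + 1) was 0.801 to 0.929 and Spearman's rho 0.788 to 0.926 in the 6 pairs among them, all 6 past 0.05 in permutation tests (100000 permutations, two-sided). Adjusted over the 28 pairs of the 8 genes, their p-values lay between 5.6e-05 and 9.33e-05 for r and between 5.6e-05 and 0.000607 for rho. Deviations from the 4 group means gave r of 0.742 to 0.894, so the shared variation was present within groups. Without the 2 libraries farthest from the median, r was 0.687 to 0.886. The ratio of Acta2 to Tagln within a library stayed between 1.70 and 2.82, a 1.66-fold span, while Acta2 itself spanned 4.80-fold.

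The 4 pericyte genes shared much less. In their 6 pairs r ran from -0.045 for Rgs5 with Cspg4 to 0.672 for Pdgfrb with Vtn. Pdgfrb with Vtn was the single pericyte pair past 0.05 (rho 0.573, permutation p adjusted over 28 pairs 0.00469 for r and 0.0273 for rho, n = 20), and without the 2 farthest libraries its r was 0.493. Rgs5, the strongest pericyte marker by level, had r of 0.070 with Pdgfrb and 0.193 with Vtn. With the contractile genes its r was 0.658 for Myh11 (rho 0.705, adjusted permutation p 0.0044 and 0.0028, n = 20) and 0.693 without the 2 farthest libraries. For Acta2 r was 0.577 and rho 0.602 (adjusted permutation p 0.0149 and 0.0203, n = 20). For Tagln r was 0.540 and rho 0.519, of which r alone passed (adjusted permutation p 0.0293 and 0.0574, n = 20), and for Myl9 r was 0.395 and rho 0.508, with neither past 0.05 (adjusted permutation p 0.12 and 0.0604, n = 20). Of the 16 pairs between the sets, 9 passed for r and 2 for rho.

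**Figure D4:**
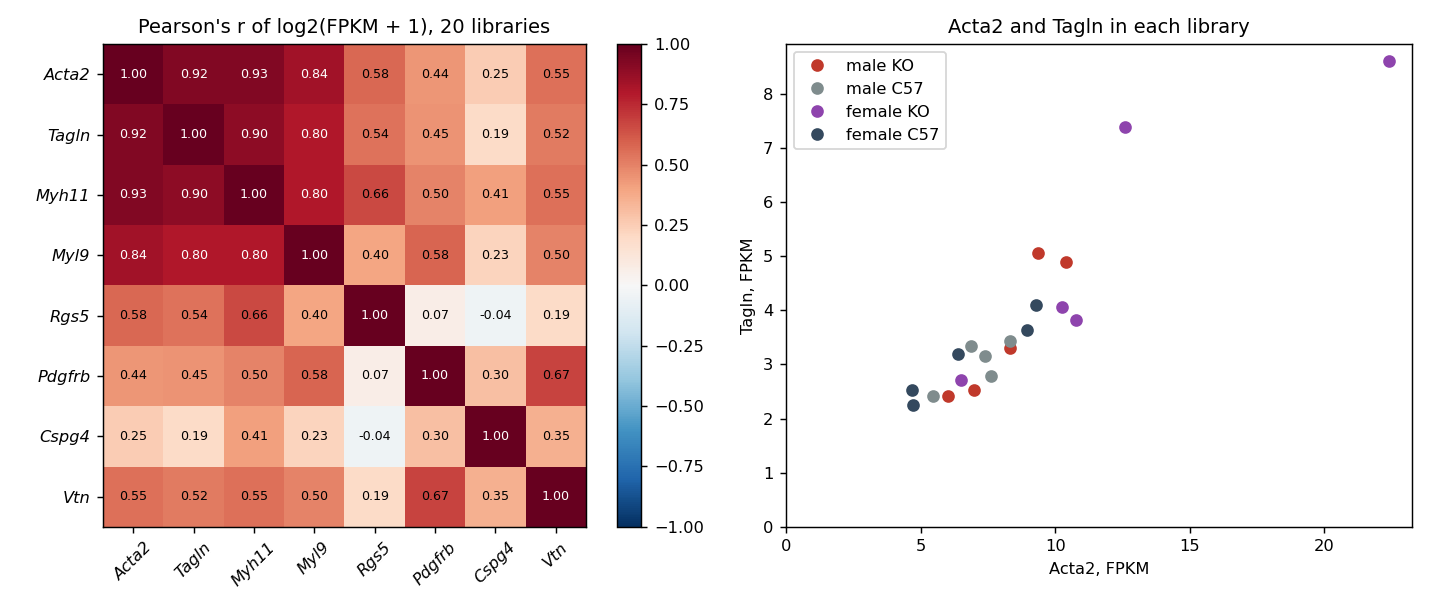
Left, Pearson's r of log2(FPKM + 1) over the 20 libraries for each pair of the 8 genes. Right, Tagln against Acta2 in FPKM, 1 point a library, coloured by group. The 4 contractile genes form a block of r from 0.80 to 0.93, and female KO replicate 4 lies at the top right with 22.4 FPKM of Acta2 and 8.60 FPKM of Tagln.

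Among 11799 genes with a mean of at least 1 FPKM, those most like the mean standardised pattern of the 4 contractile genes over the 20 libraries were Fmod (r = 0.857), Aebp1 (0.842), Bgn (0.824), Timp3 (0.822) and Slc22a8 (0.807). Fmod and Bgn encode small leucine-rich proteoglycans of connective tissue, and Timp3 an inhibitor of matrix metalloproteinases. Those most like the pattern of the 4 pericyte genes were Bgn (r = 0.837), Podxl (0.833), Bcam (0.813), Gas6 (0.812) and Ndst4 (0.807). Podxl encodes a sialomucin of endothelium and Bcam a receptor for laminin. These genes were picked for their r, which is given with no test.

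Other genes of the same machinery were followed as lists. Of 13 further smooth muscle contractile genes 9 were tested, and 1 was past the threshold in females and 0 in males by limma, with a median difference of 0.21 in females and 0.00 in males. Smtn, which encodes smoothelin of contractile smooth muscle, was the one that rose in females, to 1.58 ± 0.235 FPKM in KO against 1.10 ± 0.145 FPKM in C57 libraries (SD, n = 5 each; difference 0.29, adjusted p = 0.0434 by limma). Its call held in 3 of the 10 fits that left out 1 female library, those without KO replicate 1, KO replicate 5 or C57 replicate 1, and the difference ranged from 0.26 to 0.33. In females Crip1, a LIM domain gene, had a difference of 0.33 (adjusted p = 0.0749 by limma), and Pln, which encodes a brake on the calcium pump SERCA, one of 0.37 (adjusted p = 0.189). The female difference was above 0 for 6 of the 9, and below 0 for Cald1 (-0.12), Ppp1r14a (-0.11) and Tpm1 (-0.02). Des, the muscle intermediate filament, averaged 0.543 ± 0.125 FPKM in female KO and 0.340 ± 0.183 FPKM in female C57 libraries, with a difference of 0.21 in females (adjusted p = 0.201 by limma) and -0.14 in males (adjusted p = 0.728; SD, n = 5 each).

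Of 12 further pericyte markers 11 were tested and 0 passed in either sex by limma, with a median difference of 0.06 in females and 0.01 in males. At an unadjusted p under 0.05, 1 was higher and 1 lower in female KO, where 10.4% and 9.09% of all genes were. Mcam, an adhesion molecule of mural cells and endothelium, had a difference of -0.24 (adjusted p = 0.174). Notch3, the receptor by which endothelial Jag1 signals to smooth muscle, had 0.20 (adjusted p = 0.176). Kcnj8, a subunit of the potassium channel that opens when ATP is low, averaged 1.30 ± 0.245 FPKM in female KO and 1.17 ± 0.141 FPKM in female C57 libraries (SD, n = 5 each).

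Among regulators and ligands, Srf and Pdgfb passed in females. Of 16 regulators of mural cells 14 were tested, with 1 past the threshold in females and 0 in males, and a median difference of 0.08 in females and -0.04 in males. Srf, which encodes the factor that binds CArG boxes, rose in females to 10.9 ± 0.537 FPKM in KO against 9.39 ± 0.869 FPKM in C57 libraries (SD, n = 5 each; difference 0.20, adjusted p = 0.0397 by limma). Its call was lost in 6 of the 10 fits without 1 female library, those without KO replicate 1, 2 or 3 or C57 replicate 2, 4 or 5, with differences of 0.16 to 0.24 over the 10 fits. In KO mice Srf was lower in males than in females by limma (difference -0.30, adjusted p = 0.00567), a call lost without the libraries high in Prl (-0.29, adjusted p = 0.127) and after removal of the GC trend (-0.13, adjusted p = 0.145). Of the 5 PDGF ligands and the alpha receptor, 1 passed: Pdgfb, which encodes the ligand that endothelium offers to Pdgfrb, rose in females to 8.17 ± 0.812 FPKM in KO against 6.44 ± 0.526 FPKM in C57 libraries (SD, n = 5 each; difference 0.30, adjusted p = 0.0177 by limma). Without female C57 replicate 4 its adjusted p was 0.0508 with a difference of 0.28, and in KO mice it was lower in males than in females (difference -0.40, adjusted p = 0.00384), a call lost without the libraries high in Ttr (-0.31, adjusted p = 0.0624). The female difference of Srf was 0.09 after removal of the GC trend, with an adjusted p of 0.273 by limma. That of Pdgfb was 0.21 without the libraries high in Ttr (adjusted p = 0.207 by limma). Pdgfrb, the receptor of that ligand, had a female difference of -0.02.

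The remaining partners gave no call in either sex by limma. Of 7 vitronectin receptors and partners 4 were tested, with medians of 0.04 in females and -0.03 in males. The 10 RGS proteins and G alpha subunits had medians of 0.00 in females and -0.04 in males. The 7 genes of light chain phosphorylation had 0.05 in females and -0.03 in males, and the 11 tested non-muscle paralogs of the contractile genes 0.10 in females and 0.02 in males. Gnai2 and Gna11, G alpha subunits whose signals RGS proteins end, had the smallest p-values of their list, with female differences of 0.12 (adjusted p = 0.103) and 0.13 (adjusted p = 0.121). Actb, the non-muscle actin, did not follow Acta2 over the 20 libraries (r = 0.053, rho = -0.075, permutation p adjusted over 11 relations 0.888 and 0.882).

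**Figure D5:**
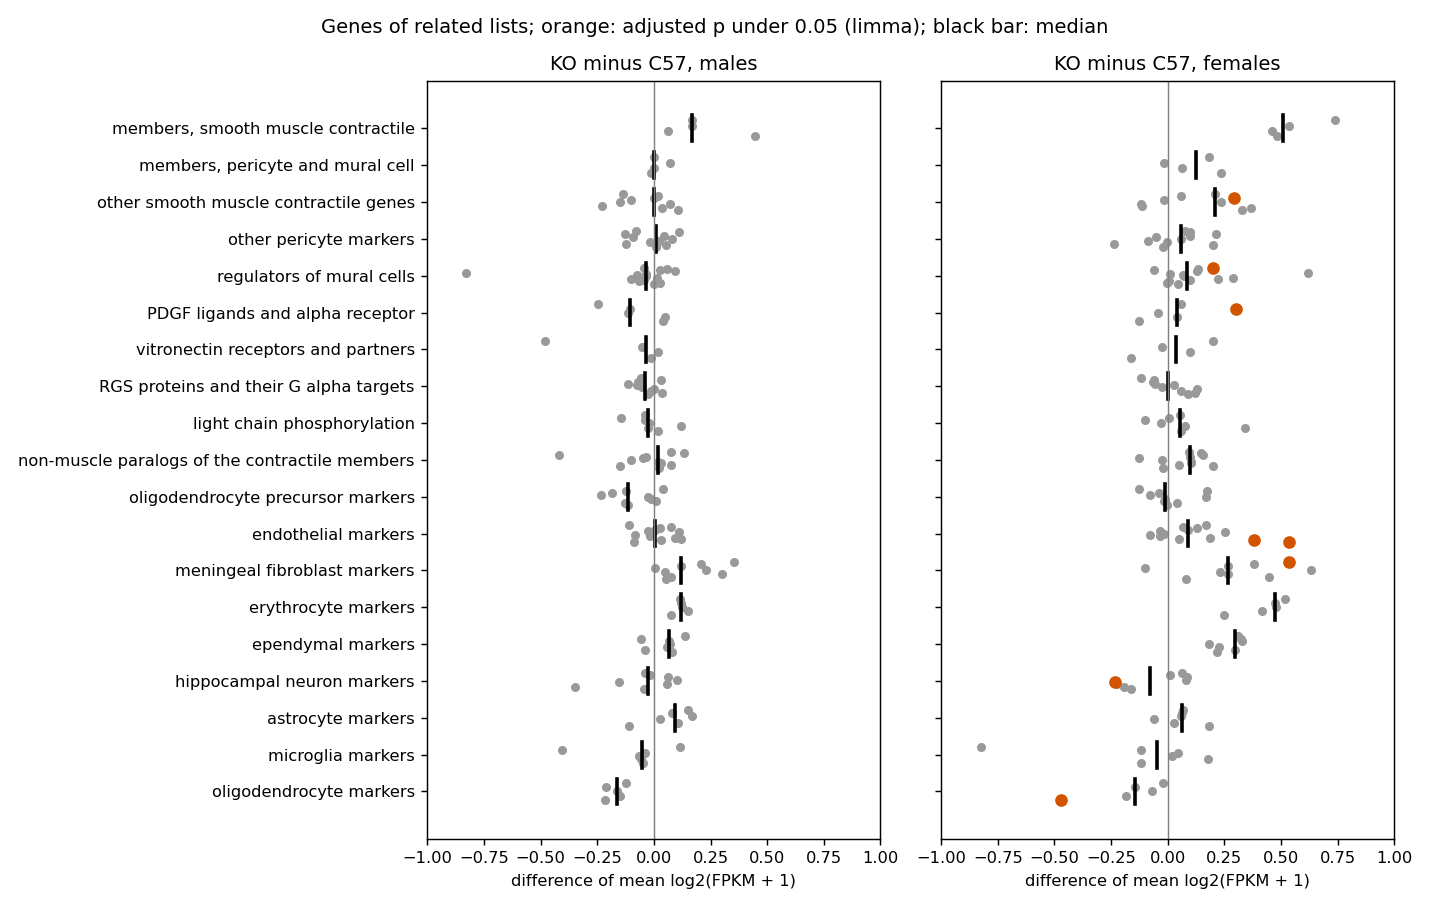
Difference of mean log2(FPKM + 1), KO minus C57 (horizontal axes), in males (left) and females (right), 1 point for each tested gene of each list. Black bars are list medians and orange points are genes with a limma adjusted p under 0.05, of which males have none and females have 8 among the lists drawn, which leave out choroid plexus, pituitary and skeletal muscle.

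Markers of other cells varied in the same libraries, and their part in the values above was not tested beyond the fits named here. Of 13 endothelial markers 2 passed, both higher in female KO: Mfsd2a, which carries lipids across brain endothelium (difference 0.54, adjusted p = 0.0139 by limma), and Slc2a1, which carries glucose across it (0.38, adjusted p = 0.0429). The call of Slc2a1 held in 3 of 10 fits without 1 library, those without KO replicate 4, KO replicate 5 or C57 replicate 1, with differences of 0.32 to 0.46. The median difference of the 13 was 0.09 in females and 0.00 in males. In females 9 of the 13 were above 0, where 52% of all tested genes were, and the lowest was -0.08. The endothelial sum was 89.9 to 110.1 FPKM in female KO and 80.3 to 88.2 FPKM in female C57 libraries. In males it was 81.3 to 93.1 FPKM in KO and 84.9 to 89.4 FPKM in C57 libraries. Relative to Cldn5, a tight junction gene of endothelium, Acta2 stood at 0.917 ± 0.348 in female KO and 0.580 ± 0.175 in female C57 libraries, and Rgs5 at 2.60 ± 0.231 in female KO and 2.58 ± 0.143 in female C57 libraries (ratio of FPKM, SD, n = 5 each). In males Acta2 stood at 0.827 ± 0.245 in KO and 0.644 ± 0.0875 in C57 libraries. Rgs5 stood at 3.45 ± 0.833 in male KO and 3.12 ± 0.460 in male C57 libraries (SD, n = 5 each). Cldn5 itself read 11.7 to 14.9 FPKM in female KO and 11.4 to 12.5 FPKM in female C57 libraries. Relative to Pdgfrb, Rgs5 stood at 9.61 ± 0.766 in female KO and 8.28 ± 0.602 in female C57 libraries (SD, n = 5 each). In males that ratio was 9.83 ± 1.24 in KO and 10.4 ± 1.27 in C57 libraries, so these ratios depend on the gene divided by.

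Of 9 tested markers of meningeal fibroblasts, cells of the brain's outer membranes where larger arteries run, 1 passed in females: Col1a1 (difference 0.54, adjusted p = 0.00512 by limma). The sum of the 10 listed genes was 34.0 to 70.3 FPKM in female KO and 32.3 to 48.7 FPKM in female C57 libraries. In males it was 27.6 to 41.7 FPKM in KO and 26.5 to 37.4 FPKM in C57 libraries. Col1a1 itself read 1.45 to 2.72 FPKM in female KO and 0.767 to 1.19 FPKM in female C57 libraries. In males Col1a1 read 0.932 to 1.21 FPKM in KO and 0.518 to 0.689 FPKM in C57 libraries, where 0 of 9 markers passed by limma. Over the 20 libraries Col1a1 followed Acta2 with r of 0.71 and rho of 0.611 (permutation p adjusted over 11 relations 0.00473 and 0.0306), with r of 0.717 for deviations from group means and 0.585 without the 2 farthest libraries. Erythrocyte markers summed to 432 to 673 FPKM in female KO and 310.5 to 562 FPKM in female C57 libraries, and 0 of 5 passed in females by limma, with 4 at an unadjusted p under 0.05. Ependymal markers summed to 16.6 to 24.3 FPKM in female KO and 8.91 to 20.2 FPKM in female C57 libraries, with 0 of 7 past the threshold and 1 at an unadjusted p under 0.05. Of 8 neuron markers 1 fell in female KO, Neurod6 of pyramidal cells (difference -0.23, adjusted p = 0.00188 by limma), and of 5 oligodendrocyte markers 1 fell, Opalin of myelin (-0.47, adjusted p = 0.0186). None of 6 astrocyte and 6 microglia markers passed in females, with 0 and 1 at an unadjusted p under 0.05. Of all tested genes 10.4% were higher and 9.09% lower in female KO at that p.

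A few libraries were high in choroid plexus or pituitary transcripts. Ttr, the main choroid plexus transcript, exceeded 500 FPKM in male KO replicate 2, in female KO replicates 4 and 5 and in female C57 replicate 4, and 0 of 7 tested choroid plexus markers passed in females by limma. Their sum was 41.9 to 1519.8 FPKM in female KO and 11.3 to 909 FPKM in female C57 libraries. Prl, the pituitary hormone prolactin, exceeded 4 FPKM in female KO replicates 2, 3 and 4 and was listed at 0 in 12 of 20 libraries. Leaving out the Prl libraries left 2 female KO libraries. Beside the values of Acta2 and Tagln given above, the female difference without the Ttr libraries was 0.22 for Myh11 and 0.27 for Myl9, and without the Prl libraries 0.19 for Myh11 and 0.17 for Myl9. For Rgs5 it was 0.12 without the Ttr libraries and 0.13 without the Prl libraries, and for Vtn 0.09 and 0.18. The female calls of Smtn, Srf, Pdgfb, Mfsd2a, Slc2a1, Col1a1, Neurod6 and Opalin were lost without the Prl libraries. In a fit of the female libraries alone 7 of these 8, all but Neurod6, were lost. For the mean effect over both sexes Col1a1, Neurod6 and Opalin passed by limma. Those calls of Col1a1 and Neurod6 held in every alternative, with largest adjusted p of 0.0114 and 0.00705 by limma. That of Opalin was lost without the Prl libraries alone (adjusted p = 0.0751).

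The 6 listed skeletal muscle genes summed to 3.52 to 4.37 FPKM in male KO libraries and to 6.49 to 10.1 FPKM in male C57 libraries. In the male comparison 3 of 5 tested skeletal muscle genes were lower in KO than in C57 by limma. These were Atp2a1 (difference -0.86, adjusted p = 1.58e-06), Myh4 (-0.77, adjusted p = 8.23e-06) and Ckm (-0.75, adjusted p = 1.58e-06). Ckm was listed at 0 in 14 libraries and read 0.510 to 1.05 FPKM in male C57 libraries. None of the 8 mural genes passed in that comparison.

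Total FPKM per library ran from 230631 to 244976, and r of log2(FPKM + 1) between libraries from 0.976 to 0.990. FPKM values carry no read counts, so the depth behind each value is unknown and no counting interval is given.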

How the data were processed

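Hippocampal RNA was extracted with TRIzol and made into libraries with a SMARTER mRNA-Seq kit, per the labels' protocols. FastQC, HISAT2 and StringTie are named without versions, with mm10, per the submitters' processing notes. The authors deposited 1 FPKM table per library, normalized for length and library size, and the fragments behind a value cannot be recovered from it. From these, log2(FPKM + 1) was fitted with limma 3.58.1 (R 4.3.3, trend) with 4 group means over all 20 libraries. Genes needed 0.5 FPKM in at least 5 libraries, and p-values were adjusted by Benjamini-Hochberg over the 13174 tested genes, with a threshold of 0.05. A log2(FPKM + 1) difference understates the change of low genes. The 8 genes, the lists and the rule for named genes (genes past the threshold, otherwise up to 2 with the smallest female p, the first markers of other cell types, and 5 most alike genes) were chosen with earlier results of these data known; Des, Kcnj8, Acta1 and Actb were added after their values were seen. Promoters came from RefSeq (GRCm38.p6), and gene overlaps from GENCODE M21. Alternatives were another pseudocount, filters, scaling, robust fit, replicate block, GC trend, left-out libraries, and Ttr and Prl as covariates. Permutation tests used 100000 permutations, whose smallest p is 1e-05.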

Additional observations from a re-analysis of the deposited data

Results flagged for a closer look

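Of 32 sets of 5 values, the 8 genes in the 4 groups, 2 held a library whose gap to its nearest neighbour exceeded Dixon's critical ratio of 0.71, where about 1 in 20 sets is flagged by chance. Myh11 was 2.06 FPKM in male C57 replicate 3, above the other 4 libraries of that group at 1.27 to 1.43 FPKM. Vtn was 20.2 FPKM in male KO replicate 1, below the other 4 at 24.1 to 25.2 FPKM. In the same male KO library Acta2, Myh11 and Myl9 were the highest of their group, at 10.4, 2.33 and 15.5 FPKM. The 22.4 FPKM of Acta2 in female KO replicate 4 did not reach the critical ratio.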

How the results depend on the processing

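Of the limma tests of the 8 genes, none passed its threshold as reported, and 5 passed under 1 or 2 alternatives: Acta2, Myh11 and Rgs5 in females without female KO replicate 1, of which Rgs5 passed (0.23) also after removal of the GC trend, Myl9 for the mean effect (0.55) without female KO replicate 1, and Vtn between sexes within KO without that library and with the replicate block (-0.28, adjusted p = 0.0485). Members past the threshold thus numbered 0 to 3 in females, 0 to 1 for the mean effect and 0 to 1 between sexes within KO with 1 library left out, 1 in females under the GC trend and 1 within KO under the replicate block.

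The count of all genes past the threshold was 438 in females, 76 without the libraries high in Ttr, 8 without those high in Prl, 39 with both as covariates, 238 under the GC trend, 91 in a fit of the compared groups and 176 to 455 with 1 library left out. In males it was 6, 3 under a filter of 2 FPKM, 12 without the Ttr libraries and 6 to 11 with 1 left out. The mean effect had 424, 181 without Ttr libraries, 84 without Prl libraries, 215 with covariates and 273 to 449 with 1 left out. The difference of effects had 6, 0 under the filter of 2 FPKM, 3 with the replicate block, 2 without Prl libraries, 3 with covariates, 3 under the GC trend and 3 to 7 with 1 left out. Between sexes within KO there were 709, 71 without Ttr libraries, 23 without Prl libraries, 75 with covariates, 109 under the GC trend and 160 to 692 with 1 left out. Within C57 there were 17, 11 under the filter of 2 FPKM, 9 in a fit of the compared groups and 11 to 17 with 1 left out.

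Differences of the 8 genes changed sign in 66 cases, none of them past the threshold, and the cause was not tested. Each case is 1 gene in 1 comparison under 1 alternative. Without the Ttr libraries the values were -0.0251 for Rgs5 in males, -0.0314 for the mean effect of Pdgfrb, 0.17 for Myl9 and 0.0134 for Cspg4 in the difference of effects, 0.0291 for Rgs5 and 0.0733 for Pdgfrb between sexes within KO, and -0.0033 for Acta2 within C57. Without the Prl libraries they were 0.121 for Tagln and 0.276 for Myl9 in the difference of effects, and 0.0928 for Tagln, 0.07 for Myl9, 0.049 for Rgs5 and 0.0196 for Pdgfrb within KO. With both as covariates they were -0.0021 for Rgs5 in males, -0.0148 for the mean effect of Pdgfrb, 0.137 for Myl9 in the difference of effects, and 0.066 for Rgs5 and 0.0481 for Pdgfrb within KO. The GC trend gave -0.0116 for Cspg4 in females, -0.0058 in males, -0.0087 for its mean effect, 0.0058 for Cspg4 and 0.0136 for Myl9 in the difference of effects, 0.0451 for Pdgfrb within KO and 0.0061 for Vtn within C57. Upper-quartile rescaling gave 0.0092 for Rgs5 within KO. With 1 library left out, differences that changed sign ranged in males from -0.0312 to 0.141 for Myh11, -0.0265 to 0.0419 for Rgs5, -0.0263 to 0.0472 for Cspg4 and -0.0533 to 0.0386 for Vtn. They ranged from -0.065 to 0.0383 for Pdgfrb in females, from -0.199 to 0.0909 for Myl9 in the difference of effects, from -0.054 to 0.0382 for Rgs5 and -0.0801 to 0.0232 for Pdgfrb within KO, and from -0.0061 to 0.209 for Acta2, -0.111 to 0.0519 for Tagln and -0.0634 to 0.0128 for Vtn within C57.

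Within each sex, KO and C57 libraries of the same replicate number were not alike. Correlations of same-numbered deviations ran from -0.067 to 0.065 over 10 pairs, and 1 of 10 libraries was most like its own number. Numbers shared across the sexes were not compared, so a pairing there was not tested. With the replicate block the female calls of Smtn (adjusted p = 0.0579 by limma) and Srf (0.0641) were lost. The filter of 2 FPKM left Cspg4 untested. With no read counts, low genes such as Cspg4 and Myh11 have a precision that cannot be stated.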
